A study of Mus musculus with 16 samples.

Results

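The transcriptome of cultured mouse granulosa cells (mGCs) after 24 h with 14,15-EET was compared with that of cells given PBS. The comparison took every library of the culture experiment, 6 of the 16 libraries of the series, with 3 in the EET group and 3 in the PBS group. Of 57010 genes in the count table, 15050 had enough reads to be tested. Both groups came from ICR female mice of the endometriosis (EM) model, in which endometrium from estradiol-treated donor mice was grafted into recipients operated on at 6 weeks of age. Per the study's supplement, the recipients were also given estradiol after grafting, with a washout before ovulation was induced. Granulosa cells of 6 such mice, primed with gonadotropin, were divided into parts and kept in serum-containing DMEM/F12 medium (5% serum). The EET group received 100 nM 14,15-EET, and the PBS group received the same volume of PBS. The study's methods call the 3 libraries of each group paired biological replicates, but which mice went into which library was not given in the sources used here, and no cultured cells of sham-operated mice were analysed here, so every value below describes cells of the EM model. All differences are EET minus PBS.

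Granulosa cells line the ovarian follicle, nourish the oocyte and make steroid hormones, and after ovulation they become luteal cells. Epoxyeicosatrienoic acids such as 14,15-EET are lipid mediators formed out of arachidonic acid by cytochrome P450 epoxygenases, and Ephx2 encodes the soluble hydrolase that turns them into less active diols. In other tissues they open potassium and TRP channels, bind PPAR receptors, and act through cAMP and PI3K-Akt signalling, and the study asked whether they bear on granulosa cell senescence in endometriosis.

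Library totals ran from 21384686 to 27728777 counted reads with PBS and from 23823566 to 29482826 with 14,15-EET, and mitochondrial transcripts took 1.18% to 1.64% and 1.41% to 1.57% of them. The spread between replicates was small, with a biological coefficient of variation of 0.0620. The PBS libraries differed from each other more than the EET libraries did, since the chi-square over its degrees of freedom was 7.11 to 12.4 between pairs of PBS libraries and 2.66 to 5.21 between pairs of EET libraries, and all of these exceed sampling noise. Of 16 granulosa markers, 14 averaged at least 1 CPM, among them Inha, Inhba, Foxl2, Gata4 and Nr5a2, whereas the aromatase gene Cyp19a1 and Amh were near 0, with at most 9 and 10 reads in any library. The summed level of the granulosa markers was 6753 to 7241 CPM in the PBS libraries and 6310 to 6691 CPM in the EET libraries, and that of surface epithelium markers was 156 to 171 CPM and 128 to 140 CPM, so both were lower in every EET library. Inha, at a mean of 2471 CPM with PBS and 1922 CPM with 14,15-EET, had by far the largest difference in CPM of the granulosa markers. On the log2 scale Wt1 had the lowest value of these markers (-0.48, against -0.36 for Inha). Of the 14 tested granulosa markers, 10 were lower and 4 higher, among the latter Inhbb (884 and 969 CPM). Among the surface epithelium markers the keratin genes Krt18 (83.7 ± 2.92 CPM with PBS and 68.3 ± 2.22 CPM with 14,15-EET; SD, n = 3) and Krt8 (72.9 ± 4.39 CPM with PBS and 60.6 ± 5.002 CPM with 14,15-EET) gave nearly all of the sum, and Krt18 was itself called (log2 fold change -0.29 ± 0.05 SE, adjusted p = 0.0152). The other surface epithelium markers had at most 1.89 CPM in any library. Of the 7 tested, 5 were lower and 2 higher, the latter Krt7 and Krt19, so the lower sum describes Krt8 and Krt18. Summed markers of theca, stroma, smooth muscle, endothelium and macrophages overlapped between the groups, and Cyp17a1, which defines theca cells, was near 0. The leukocyte gene Ptprc had at most 1 read in any library. Neutrophil, red blood and oocyte markers summed to at most 1.55, 0.285 and 1.47 CPM. In bulk RNA, fewer cells of a type and less RNA per cell cannot be told apart, and what the lower marker sums contribute to the differences below was not tested.

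**Figure D1:**
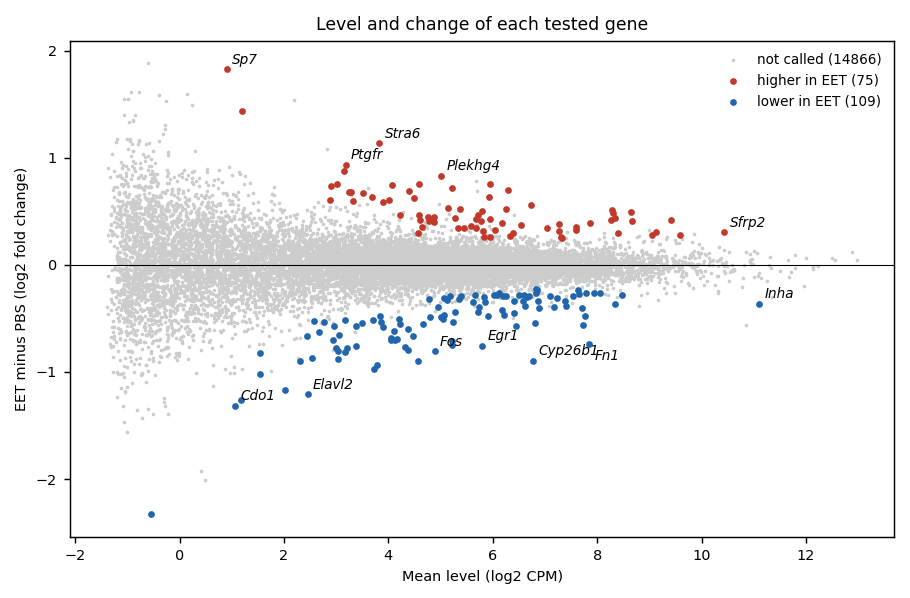
Mean level of each of the 15050 tested genes over the 6 libraries (x axis, log2 CPM) against its change (y axis, log2 fold change, EET minus PBS), 1 point a gene. Red points are the 75 genes called higher and blue points the 109 called lower in EET; called genes of low level have larger changes than called genes of high level.

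The response was narrow and small in size. With edgeR's quasi-likelihood test, 184 genes (1.22% of those tested) had an adjusted p under 0.05, of which 75 (0.498%) were higher and 109 (0.724%) lower with 14,15-EET. Of the 184, 177 are protein-coding, 5 are long noncoding RNAs and 2 are pseudogenes. The groups did not overlap in any of the 184, where the same holds for 17.6% of all tested genes, and 12.4% of tested genes had an unadjusted p under 0.05. Absolute changes of the called genes ran from 0.22 to 2.33 on the log2 scale with a median of 0.47, and 9 reached an absolute log2 fold change of 1. Calls depended on the level of a gene. Among the 3763 genes of lowest mean level the median standard error was 0.293 and 7 genes were called, with a median absolute change of 1.32, whereas among the 3763 genes of highest level the error was 0.0536 and 69 genes were called, with a median of 0.336. A change as small as the typical one at high levels could not be detected at low levels.

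Below, the 3 values of a group are those of replicates 1, 2 and 3, in CPM after TMM scaling. The largest rises and falls among called genes of at least 1 log2 CPM, leaving out predicted symbols, are drawn per library in the plot of largest changes. Among the rises were a retinol receptor, a prostaglandin receptor and a WNT receptor, which are described with their pathways. Plekhg4, which encodes a guanine nucleotide exchange factor, was at 24.3, 22.1 and 22.7 CPM in the PBS libraries and 40.9, 39.8 and 42.2 CPM in the EET libraries. The EET libraries lay close together and far above all PBS libraries (log2 fold change 0.83 ± 0.06 SE, adjusted p = 1.25e-04). H2-Q10, which encodes a secreted class I histocompatibility molecule, was at 47.97, 42.4 and 46.1 CPM in the PBS libraries and 80.8, 72.1 and 77.7 CPM in the EET libraries. It rose 1.69-fold in all EET libraries (log2 fold change 0.76 ± 0.06 SE, adjusted p = 1.59e-04), and since other class I genes are close in sequence, its share of the reads is uncertain. Tns4, a tensin of focal adhesions, was at 51.00, 59.4 and 68.5 CPM in the PBS libraries and 100.4, 93.6 and 96.3 CPM in the EET libraries, and it rose in each EET library above the highest PBS library (log2 fold change 0.69 ± 0.08 SE, adjusted p = 0.00222). Ppp1r16b, a regulatory subunit of protein phosphatase 1, rose from 27.98 ± 3.57 CPM with PBS to 46.1 ± 1.46 CPM with 14,15-EET (SD, n = 3; log2 fold change 0.71, adjusted p = 0.00167), and Cplx1, a complexin of vesicle fusion, rose by 0.74 (adjusted p = 0.00294). The other rises of this rank were Mamdc2 (0.75), Tmem71 (0.75), Plbd1 (0.69), the alkaline phosphatase gene Alpl (0.68), Rassf4 (0.68) and the adaptor gene Dok7 (0.67), with adjusted p from 0.00942 to 0.03601. For Mamdc2 and Plbd1 the PBS libraries themselves spread widely, from 12.7 to 23.5 CPM and from 12.95 to 19.03 CPM.

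**Figure D2:**
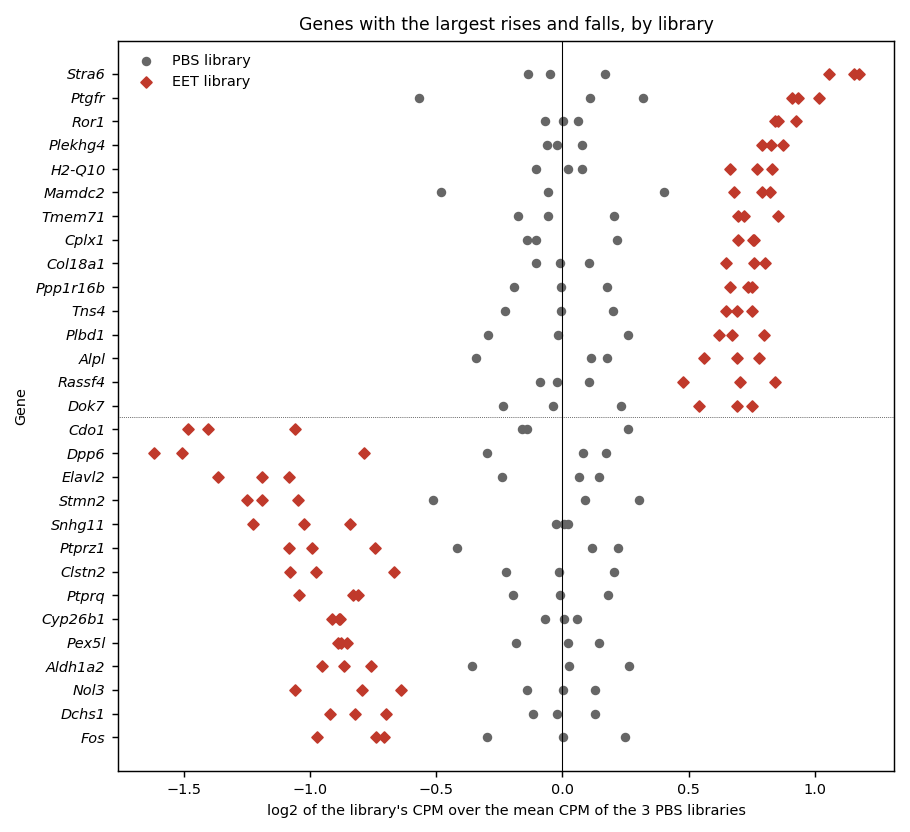
The 15 largest rises (top) and 14 of the 15 largest falls (bottom) that met the naming rule, with each library's level as log2 of its CPM over the mean of the 3 PBS libraries (x axis) and 1 row a gene. In every row the 3 EET libraries (red diamonds) lie apart from the 3 PBS libraries (grey circles), which the naming rule required.

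Among the falls, Elavl2, a neuronal RNA-binding protein of the Hu family, was at 6.405, 8.35 and 7.91 CPM in the PBS libraries and 3.57, 3.31 and 2.93 CPM in the EET libraries. Every EET library was under every PBS library by at least 2.84 CPM (log2 fold change -1.21 ± 0.14 SE, adjusted p = 0.00199). Stmn2, a regulator of microtubules, was at 3.84, 6.77 and 5.83 CPM in the PBS libraries and 2.65, 2.399 and 2.303 CPM in the EET libraries, with PBS-1 the lowest of its group (log2 fold change -1.17 ± 0.20 SE, adjusted p = 0.0134). Dpp6, an auxiliary subunit of potassium channels, was at 2.51, 3.27 and 3.49 CPM in the PBS libraries and 1.09, 1.79 and 1.005 CPM in the EET libraries (log2 fold change -1.26 ± 0.24 SE, adjusted p = 0.0251). The synaptic calsyntenin gene Clstn2 (-0.90), the receptor phosphatase genes Ptprz1 (-0.94) and Ptprq (-0.89), and Pex5l (-0.88) fell as well, with adjusted p from 0.00147 to 0.0157. Cdo1, which encodes cysteine dioxygenase, the enzyme that starts the breakdown of cysteine, was at 2.61, 2.58 and 3.45 CPM in the PBS libraries and 1.09, 1.03 and 1.38 CPM in the EET libraries. It had the largest fall under the naming rule, from a low level (log2 fold change -1.32 ± 0.22 SE, adjusted p = 0.0109). Further falls of this rank were Snhg11 (-1.02), the protocadherin gene Dchs1 (-0.81) and the apoptosis repressor gene Nol3 (-0.82), beside Cyp26b1, Aldh1a2 and Fos, which follow.

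Of the retinoid pathway, which carries vitamin A into cells, turns it into retinoic acid and removes that acid again, 27 of 39 listed genes were tested, and 1 was higher and 3 were lower with 14,15-EET (14.8% called, against 1.22% of all genes). The list's median change was -0.02, where that of all genes was 0.00107. Stra6, the membrane receptor that takes up retinol, was at 9.92, 8.04 and 8.53 CPM in the PBS libraries and 19.7, 19.95 and 18.4 CPM in the EET libraries. The EET libraries lay 8.46 CPM or more above the highest PBS library, and Stra6 rose 2.201-fold (log2 fold change 1.14 ± 0.09 SE, adjusted p = 1.59e-04). Crabp2, which hands retinoic acid to its nuclear receptors, was at 178, 193 and 204 CPM in the PBS libraries and 157, 139 and 144 CPM in the EET libraries, with every EET library lower (log2 fold change -0.39 ± 0.06 SE, adjusted p = 0.0101). Aldh1a2, which makes retinoic acid from retinal, was at 5.74, 7.502 and 8.85 CPM in the PBS libraries and 4.04, 3.81 and 4.35 CPM in the EET libraries. It fell from a low level (log2 fold change -0.87 ± 0.16 SE, adjusted p = 0.0197), and the call was lost when PBS-3, EET-1, EET-2 or EET-3 was left out. Aldh1a1, the retinal dehydrogenase with many more reads here, gave 3387 ± 329 CPM with PBS and 3137 ± 140.5 CPM with 14,15-EET (SD, n = 3; log2 fold change -0.11, 95% interval -0.27 to 0.05). Cyp26b1, the cytochrome P450 that clears retinoic acid, was at 144, 149 and 136 CPM in the PBS libraries and 77.3, 75.9 and 77.5 CPM in the EET libraries. The EET libraries were close together and at least 58.7 CPM under the lowest PBS library, which gave the smallest adjusted p of the experiment (log2 fold change -0.89 ± 0.05 SE, adjusted p = 6.81e-06). The 4 tested retinoic acid receptors and the 7 tested genes that the list holds as targets had 0 calls, where 1.22% of all genes were called. At that share 0 calls among so few genes says little about them. The list places Stra6, Crabp2, Aldh1a2 and Cyp26b1 under other roles, so they were not counted as targets, and whether retinoic acid targets responded was not tested. Among the receptors Rara was at -0.18 ± 0.07, Rarg at -0.02 ± 0.07 and Rxra at -0.09 ± 0.06 (log2 fold change ± SE). Rarb, Cyp26a1 and Lrat had at most 4 reads in any library and were not tested. Dhrs3, which returns retinal to retinol, gave 44.2, 43.4 and 50.1 CPM in the PBS libraries and 57.8, 54.1 and 54.6 CPM in the EET libraries, with no overlap and an adjusted p of 0.0726.

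In the deposited coordinates, which per the submitters' notes are of build GRCm39, Stra6 spans chr9:57971071-58061279 on the plus strand and overlaps Ccdc33, and Cyp26b1 spans chr6:84548396-84570890 on the minus strand and overlaps no counted gene that holds at least 1% of its reads. The RefSeq promoter of Cyp26b1, the gene with the smallest adjusted p, is printed below for the 250 bases before the start (chr6:84593811-84594060 on the minus strand, build GRCm38.p6), with a TATA box (TATAAA) and GC boxes (GGGCGG, either strand) in capitals.
Cyp26b1: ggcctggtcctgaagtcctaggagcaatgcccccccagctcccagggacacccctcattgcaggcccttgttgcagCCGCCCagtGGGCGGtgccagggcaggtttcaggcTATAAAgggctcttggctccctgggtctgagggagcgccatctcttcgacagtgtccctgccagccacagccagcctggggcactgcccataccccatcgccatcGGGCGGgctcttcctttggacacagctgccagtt

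**Figure D3:**
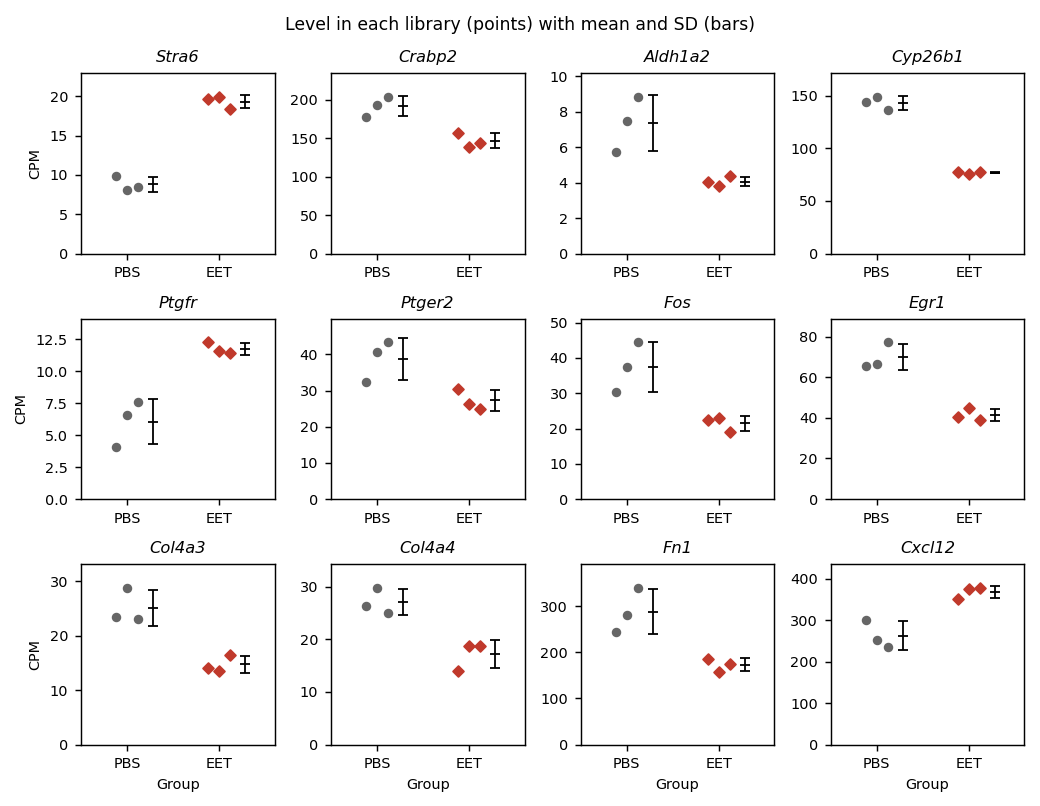
CPM (y axis, from 0) in each PBS library (grey circles) and each EET library (red diamonds) of 12 genes, with bars for the mean and SD of each group of 3. Stra6, Ptgfr and Cxcl12 are higher and the other 9 lower in EET, and the groups of every gene are apart, as in all called genes.

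A further list held genes of EET turnover and of proteins that EETs act on or bind to. Of its 58 genes, from phospholipases through epoxygenases to channels, 25 were tested and 0 were called by edgeR (0%, against 1.22% of all genes). At that share 0 calls among 25 genes says little about them. The list's median change was -0.01. An unadjusted p under 0.05 was found for 6 of the 25, and for 12.4% of all genes. Of the listed epoxygenases of the Cyp2c and Cyp2j families, Cyp2j6 and Cyp2j9 were tested (log2 fold change -0.00 ± 0.07 and -0.08 ± 0.24 SE) and the others had at most 5 reads in any library. Ephx2, the enzyme that removes 14,15-EET, was at 2149.6, 2308 and 2335 CPM in the PBS libraries and 2149, 2116 and 2036 CPM in the EET libraries. Each EET library was just under the lowest PBS library, but the change was -0.11 with a 95% interval of -0.23 to 0.01 (adjusted p = 0.448). Ephx1, the microsomal hydrolase, gave -0.01 with an interval of -0.18 to 0.15. Trpc6, a calcium channel of the TRP family, had the smallest adjusted p of this list (0.0592), with 2.56, 2.35 and 3.02 CPM in the PBS libraries and 1.22, 1.71 and 1.005 CPM in the EET libraries.

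Among genes of prostaglandins, the other lipid mediators made from arachidonic acid, 20 of 26 were tested, and 1 rose and 1 fell (10.0% called, against 1.22% of all genes, median change 0.06). Both are receptors. Ptgfr, the receptor of prostaglandin F2 alpha, which starts the decline of the corpus luteum, was at 4.08, 6.54 and 7.55 CPM in the PBS libraries and 12.3, 11.6 and 11.4 CPM in the EET libraries. All EET libraries were above all PBS libraries (log2 fold change 0.94 ± 0.16 SE, adjusted p = 0.0156), PBS-1 was the lowest, and the call was lost without EET-1, EET-2 or EET-3 in turn. Ptger2, a prostaglandin E2 receptor needed for expansion of the cumulus, was at 32.3, 40.7 and 43.4 CPM in the PBS libraries and 30.5, 26.4 and 25.04 CPM in the EET libraries. The groups were separated by 1.83 CPM, between EET-1 and PBS-1 (log2 fold change -0.51 ± 0.10 SE, adjusted p = 0.0365). Of the others, Ptger3 gave -0.95 (adjusted p = 0.0847), Ptgs1 gave 0.66 (adjusted p = 0.0521), and Ptgs2, the inducible cyclooxygenase, gave 0.01 (95% interval -0.24 to 0.27). The deposited span of Ptgfr, chr3:151502139-151543267 on the minus strand, overlaps the predicted gene Gm43618. The 250 bases before the RefSeq start of Ptgfr (chr3:151837529-151837778, minus strand, GRCm38.p6) are shown because it had the second largest rise under the naming rule. Capitals mark AGGTCA, a core site of nuclear receptors, read here on the other strand as TGACCT, and a GC box.
Ptgfr: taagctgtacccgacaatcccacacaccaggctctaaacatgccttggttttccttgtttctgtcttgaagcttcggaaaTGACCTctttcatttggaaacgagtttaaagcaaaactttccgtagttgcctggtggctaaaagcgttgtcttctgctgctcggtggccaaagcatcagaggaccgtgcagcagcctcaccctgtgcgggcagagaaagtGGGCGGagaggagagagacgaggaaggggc

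Of PPAR target genes, which handle fatty acids and which EETs can raise through PPAR receptors in other cells, 30 of 35 were tested. Of these 20 had a positive change and 1 was called (3.33%, against 1.22% of all genes). Plin4, a coat protein of lipid droplets, was at 181, 161 and 176 CPM in the PBS libraries and 217, 209 and 222 CPM in the EET libraries, higher in every EET library (log2 fold change 0.32 ± 0.05 SE, adjusted p = 0.0109). The list's median was 0.05, and its ends were Aqp7 at 0.47 ± 0.15 and Lpl at -0.19 ± 0.08 (± SE), neither of which passed the test.

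PI3K-Akt signalling is a route by which growth factors and matrix act on granulosa cell survival, and its listed genes were divided into the core, the matrix and growth factors. Of the core, 58 of 64 genes were tested, 2 rose and 0 fell by edgeR's test (3.45% called, against 1.22% of all genes, median 0.01). An unadjusted p under 0.05 was found for 12 of the 58, and for 12.4% of all genes. Tbc1d4, an Akt substrate that controls the movement of glucose transporters, was at 29.9, 35.97 and 36.1 CPM in the PBS libraries and 51.1, 51.1 and 44.8 CPM in the EET libraries, with EET-3 the lowest of its group and still above all PBS libraries (log2 fold change 0.52 ± 0.08 SE, adjusted p = 0.00792). Inpp5j, a phosphatase that removes the 5-phosphate of PI3K products, was at 69.6, 71.4 and 77.4 CPM in the PBS libraries and 90.3, 83.7 and 89.3 CPM in the EET libraries (log2 fold change 0.27 ± 0.06 SE, adjusted p = 0.0396), and its reads may be shared with the overlapping Pla2g3. Pik3r1 encodes a regulatory subunit that the study followed as protein. Its mRNA was at 251, 297 and 318 CPM in the PBS libraries and 361, 341 and 325 CPM in the EET libraries. The groups did not overlap, although PBS-3 and EET-3 were only 7.69 CPM apart, and the change did not pass the test (log2 fold change 0.25, 95% interval 0.08 to 0.41, adjusted p = 0.1803). Of 14 alternative fits 1 called it, the one that tested every gene with at least 1 read (adjusted p = 7.55e-04), and in the others, DESeq2 among them, its adjusted p was 0.0502 to 0.461. Akt1 gave -0.07 (interval -0.17 to 0.03), Akt2 -0.00 (-0.10 to 0.10) and Mtor 0.09 (-0.03 to 0.21), so that changes in mRNA beyond -0.17 or 0.21 lie outside the intervals of all 3 kinases. The study followed the activation of Akt and mTOR as phosphorylated protein, which mRNA levels do not measure. All 57 genes of the mTOR complexes and their regulators were tested and 0 were called by edgeR (0%, against 1.22% of all genes). Their changes ran from -0.23 for Lamtor2 to 0.24 for Ddit4. An unadjusted p under 0.05 was found for 8 of the 57, and for 12.4% of all genes.

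In the matrix branch the called members fell, while its tested members were split, 24 higher and 26 lower. Of 62 genes of matrix proteins and their integrins, 50 were tested, 4 fell and 0 rose (8% called, against 1.22% of all genes, median -0.01). An unadjusted p under 0.05 was found for 17 of the 50, and for 12.4% of all genes. Fn1, fibronectin, was at 243, 281 and 340.5 CPM in the PBS libraries and 187, 159 and 175 CPM in the EET libraries. Every EET library lay at least 56.7 CPM under the lowest PBS library (log2 fold change -0.73 ± 0.10 SE, adjusted p = 0.00388). Col4a3 and Col4a4 encode chains of type IV collagen that assemble together in specialised basement membranes. Col4a3 was at 23.4, 28.9 and 23.1 CPM in the PBS libraries and 14.2, 13.6 and 16.5 CPM in the EET libraries (log2 fold change -0.77 ± 0.10 SE, adjusted p = 0.00362), and Col4a4 was at 26.3, 29.8 and 25.0 CPM in the PBS libraries and 14.03, 18.7 and 18.7 CPM in the EET libraries (log2 fold change -0.66 ± 0.11 SE, adjusted p = 0.0109). The groups were 6.56 and 6.305 CPM apart. The chains of ordinary basement membrane did not pass the test, with Col4a1 at 0.06 ± 0.06, Col4a2 at 0.05 ± 0.06, and neither did Col4a6 at 0.13 ± 0.09 (log2 fold change ± SE). Col4a5, the chain that joins Col4a3 and Col4a4 in their shared network, gave 0.21 ± 0.07 SE and did not pass the test either (adjusted p = 0.2199). Itga3, a subunit of a laminin receptor, fell by a smaller amount (log2 fold change -0.26 ± 0.05 SE, adjusted p = 0.0304), from 124 ± 7.095 CPM with PBS to 104 ± 0.977 CPM with 14,15-EET (SD, n = 3).

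Col4a4 and Col4a3 are neighbours that run in opposite directions from starts 71 bp apart, at chr1:82426144-82564570 and chr1:82564642-82699780 in the deposited coordinates (GRCm39 per the submitters' notes), so that the sequence between them lies before both genes. For this reason the 250 bases before the RefSeq start of Col4a4 are printed (chr1:82586850-82587099, minus strand, GRCm38.p6). The window is longer than the 71 bp between the starts, so much of it may lie within Col4a3. The builds were not matched, so whether a marked site lies between the starts was not determined. An AGGTCA site is in capitals, and no other motif searched was found in this window.
Col4a4: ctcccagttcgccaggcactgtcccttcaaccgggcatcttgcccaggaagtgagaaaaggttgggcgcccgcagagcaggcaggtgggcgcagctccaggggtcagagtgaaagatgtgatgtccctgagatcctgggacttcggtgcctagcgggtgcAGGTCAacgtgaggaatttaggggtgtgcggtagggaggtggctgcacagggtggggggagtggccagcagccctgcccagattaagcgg

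Other called genes within 100 kb of each other were Cav1 and Cav2 (17219 bp apart, both higher), Pcx and Lrfn4, which overlap (both lower), and Plekhg4 and Nol3 (91334 bp apart, in opposite directions).

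Among growth factors and their receptors, 61 of 73 were tested and 2 fell (3.28% called, against 1.22% of all genes). Bdnf, a neurotrophin that granulosa cells also secrete, was at 41.7, 53.1 and 44.8 CPM in the PBS libraries and 27.9, 27.8 and 27.7 CPM in the EET libraries, with EET libraries close to each other and at least 13.8 CPM below the PBS libraries (log2 fold change -0.75 ± 0.08 SE, adjusted p = 0.00147). Fgfr2, a fibroblast growth factor receptor, fell from 35.1 ± 3.62 CPM with PBS to 26.7 ± 1.904 CPM with 14,15-EET (SD, n = 3; log2 fold change -0.39 ± 0.08 SE, adjusted p = 0.04101). Its deposited span covers 21 other genes, so reads shared with them are uncertain. The list's median was -0.01, and its lowest member, Angpt2, gave -1.13 without passing the test (adjusted p = 0.112).

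Matrix of connective tissue moved in both directions. Of 56 listed genes, 54 were tested, 3 rose and 3 fell (11.1% called, against 1.22% of all genes, median -0.07). Col18a1, a basement membrane collagen that gives rise to endostatin, was at 5.503, 5.96 and 5.14 CPM in the PBS libraries and 9.65, 8.68 and 9.38 CPM in the EET libraries (log2 fold change 0.74 ± 0.11 SE, adjusted p = 0.00647), and it overlaps Slc19a1. Ltbp1, which holds latent TGF beta in the matrix, was at 377, 324 and 350.5 CPM in the PBS libraries and 481, 451 and 461 CPM in the EET libraries. Its lowest EET library exceeded the highest PBS library by 74.4 CPM (log2 fold change 0.41 ± 0.06 SE, adjusted p = 0.00574). Adamts2, a procollagen protease, rose by 0.34 (adjusted p = 0.0465), a call that held only without PBS-3 when single libraries were left out. The elastic fibre genes Fbln5 (log2 fold change -0.77 ± 0.11 SE, adjusted p = 0.00401) and Fbln2 (log2 fold change -0.34 ± 0.06 SE, adjusted p = 0.0209) fell, as did Col16a1 (log2 fold change -0.28 ± 0.06 SE, adjusted p = 0.03903). For Fbln5 the levels were 11.6, 12.1 and 11.04 CPM in the PBS libraries and 6.15, 6.59 and 7.62 CPM in the EET libraries, with no overlap. Lum gave the highest change (1.61) at under 1 CPM in every library and did not pass the test (adjusted p = 0.0776).

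The immediate early genes, which are the first to answer growth factors and stress, had 2 falls among 34 tested of 37, and 0 rises (5.88% called, against 1.22% of all genes). Fos was at 30.5, 37.5 and 44.5 CPM in the PBS libraries and 22.5, 22.9 and 19.1 CPM in the EET libraries. The highest EET library was 7.54 CPM under the lowest PBS library (log2 fold change -0.80 ± 0.12 SE, adjusted p = 0.00611). Egr1 was at 65.6, 66.8 and 77.2 CPM in the PBS libraries and 40.3, 44.8 and 39.1 CPM in the EET libraries, with the groups 20.8 CPM apart (log2 fold change -0.76 ± 0.07 SE, adjusted p = 5.61e-04). The list's median was 0.01, and among members that were not called Jun (-0.02), Junb (0.03), Myc (0.05) and Dusp1 (-0.15) had 95% intervals of -0.13 to 0.09, -0.08 to 0.13, -0.06 to 0.16 and -0.35 to 0.06. Among 20 tested feedback genes of the ERK pathway, 15 were lower and 5 higher, with a median of -0.12, yet 0 were called by edgeR. An unadjusted p under 0.05 was found for 6 of the 20, and for 12.4% of all genes. Of 39 tested YAP targets and contractile genes only Cnn1, calponin, was called (log2 fold change -0.70 ± 0.13 SE, adjusted p = 0.0166), which is 2.56% of the list against 1.22% of all genes. Fos is also printed for its promoter, where the 250 bases before the start (chr12:85473640-85473889, plus strand, GRCm38.p6) hold a TATA box and a GC box, in capitals.
Fos: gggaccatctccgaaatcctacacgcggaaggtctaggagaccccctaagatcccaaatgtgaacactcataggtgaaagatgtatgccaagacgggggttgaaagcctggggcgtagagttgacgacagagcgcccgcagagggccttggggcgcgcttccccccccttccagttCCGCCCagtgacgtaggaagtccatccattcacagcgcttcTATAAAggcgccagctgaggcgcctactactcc

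**Figure D4:**
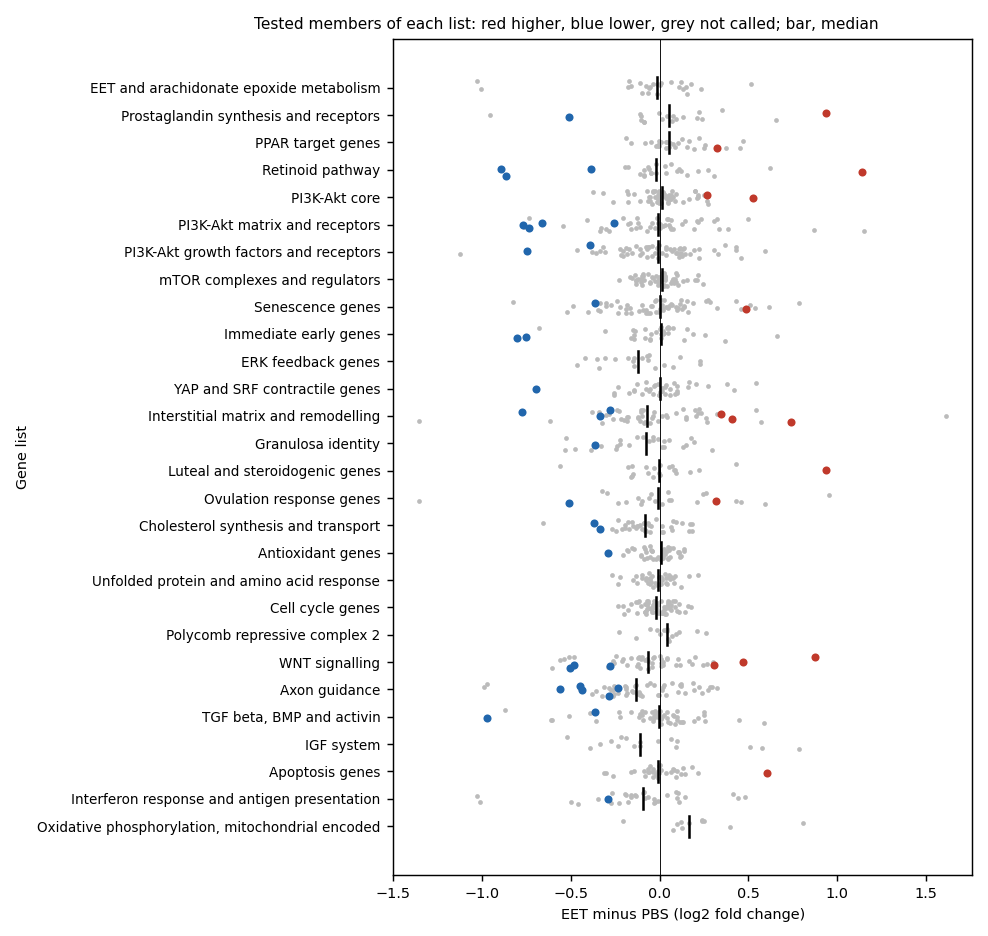
Change of each tested member (x axis, log2 fold change, EET minus PBS) of 28 gene lists, 1 row a list, with the list's median as a black bar. Red members were called higher, blue lower and grey not called; medians lie between -0.13 for axon guidance and 0.16 for mitochondrially encoded genes.

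WNT signalling regulates follicle growth and luteal function. Of 76 listed genes 51 were tested, 3 rose and 3 fell (11.8% called, against 1.22% of all genes, median -0.07). The rises were 2 receptors and a secreted inhibitor. Ror1, a receptor of WNT5A, was at 6.45, 5.89 and 6.19 CPM in the PBS libraries and 11.2, 11.1 and 11.7 CPM in the EET libraries, with narrow groups far apart (log2 fold change 0.88 ± 0.10 SE, adjusted p = 0.00147). Lgr6, a receptor of R-spondins, was at 16.3, 15.00 and 15.8 CPM in the PBS libraries and 21.4, 23.2 and 20.5 CPM in the EET libraries (log2 fold change 0.47 ± 0.08 SE, adjusted p = 0.0109). Sfrp2, a secreted protein that binds WNT ligands, was at 1334, 1191 and 1201 CPM in the PBS libraries and 1519, 1557 and 1529 CPM in the EET libraries (log2 fold change 0.31 ± 0.06 SE, adjusted p = 0.0209). The falls were Wnt5a itself, at 362, 406 and 399 CPM in the PBS libraries and 322, 319 and 319 CPM in the EET libraries (log2 fold change -0.28 ± 0.05 SE, adjusted p = 0.0236), and the secreted proteins Dkk2 (log2 fold change -0.50 ± 0.08 SE, adjusted p = 0.0106) and Dkk3 (log2 fold change -0.49 ± 0.08 SE, adjusted p = 0.0108). As in all called genes, the groups of these 6 did not overlap. The 18 tested mediators and targets had 0 calls by edgeR and a median of 0.00339. Of these, 4 had an unadjusted p under 0.05, as did 12.4% of all genes.

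Axon guidance genes, which steer cell contacts and movement in many tissues, had the lowest median of the lists, -0.13, with 39 of 57 tested genes lower, 5 called lower and 0 called higher (8.77% called, against 1.22% of all genes). An unadjusted p under 0.05 was found for 23 of the 57, and for 12.4% of all genes. The semaphorin receptor Plxnc1 was at 216, 259 and 288 CPM in the PBS libraries and 186, 169 and 163 CPM in the EET libraries (log2 fold change -0.56 ± 0.09 SE, adjusted p = 0.00926). Sema5a was at 83.7, 98.99 and 111 CPM in the PBS libraries and 74.4, 70.4 and 70.3 CPM in the EET libraries (log2 fold change -0.45 ± 0.08 SE, adjusted p = 0.0197). Sema4f fell by 0.44 on the log2 scale (adjusted p = 0.0137), Plxna2 fell by 0.28 (adjusted p = 0.0288) and the slit receptor gene Robo2 fell by 0.23 (adjusted p = 0.0272). The 3 PBS values of Plxnc1 and Sema5a were widely spread, from 216 to 288 CPM and from 83.7 to 111 CPM, and the EET values were closer together and lower.

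Of TGF beta, BMP and activin genes 54 of 62 were tested and 2 fell (3.70% called, against 1.22% of all genes). Inha, the alpha subunit of inhibin, the hormone by which granulosa cells restrain FSH, was at 2653, 2218 and 2542 CPM in the PBS libraries and 2107, 1844 and 1815 CPM in the EET libraries, with each EET library lower (log2 fold change -0.36 ± 0.08 SE, adjusted p = 0.04302). Inha was the only one of 26 tested granulosa identity genes that was called (3.85%, median -0.08, 17 lower and 9 higher). Neither Foxl2 (-0.22, adjusted p = 0.0776), the transcription factor that maintains granulosa identity, nor Wt1 (-0.48, adjusted p = 0.05399) nor Amhr2 (-0.22, adjusted p = 0.187) passed the test. The subunits of activin gave 0.03 ± 0.05 for Inhba and 0.13 ± 0.05 for Inhbb (log2 fold change ± SE).

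Luteal and steroidogenic genes had Ptgfr as their only call among 22 tested of 28 (4.55% called, against 1.22% of all genes). Star, which brings cholesterol to mitochondria, gave 406 ± 18.3 CPM with PBS and 365 ± 4.93 CPM with 14,15-EET (SD, n = 3; log2 fold change -0.15, adjusted p = 0.202), and Cyp11a1, the enzyme that cleaves its side chain, gave -0.04 (95% interval -0.16 to 0.09). Of 24 tested ovulation response genes, 1 rose and 1 fell (8.33% called, against 1.22% of all genes). Cebpa, a transcription factor of the ovulatory response, rose, with 128, 136 and 147 CPM in the PBS libraries and 178, 174 and 161 CPM in the EET libraries (log2 fold change 0.32 ± 0.06 SE, adjusted p = 0.0236), and Ptger2 fell. Of 40 cholesterol genes 28 were lower, with a median of -0.08, and 2 were called (5%, against 1.22% of all genes). Soat1, which esterifies cholesterol for storage, was at 313, 381 and 409 CPM in the PBS libraries and 285, 289.9 and 279.9 CPM in the EET libraries (log2 fold change -0.37 ± 0.08 SE, adjusted p = 0.0472), and Sc5d, a late enzyme of cholesterol synthesis, fell by 0.34 on the log2 scale (adjusted p = 0.0422). The Soat1 call was lost without PBS-3, EET-1, EET-2 or EET-3 in turn.

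Of 88 senescence genes 66 were tested, 33 were higher and 33 lower, and the median was 0.00228. Of the 66, 1 rose and 1 fell (3.03% called, against 1.22% of all genes). An unadjusted p under 0.05 was found for 18 of the 66, and for 12.4% of all genes. The rise was Cxcl12, a chemokine, at 301, 252 and 235 CPM in the PBS libraries and 351, 375 and 379 CPM in the EET libraries. Its PBS libraries fell into a range of 235 to 301 CPM and its EET libraries into 351 to 379 CPM (log2 fold change 0.49 ± 0.08 SE, adjusted p = 0.00942). The fall was Inha, which stands in the list as a secreted factor. Cdkn1a, the cell cycle inhibitor p21 that the study used as a marker of senescence, was at 419.7, 314 and 325 CPM in the PBS libraries and 334, 347 and 356 CPM in the EET libraries. PBS-1 stood above all other libraries, the groups overlapped, and the change was -0.03 with a 95% interval of -0.22 to 0.17 (adjusted p = 0.931). Without PBS-1 it was 0.12. H2ax, whose protein is phosphorylated at DNA breaks, gave -0.05 (interval -0.17 to 0.07), a value of its mRNA that does not measure the phosphorylated protein. Cdkn2a was under 1 CPM in every library, and Cdkn2b gave -0.09 (interval -0.27 to 0.08). Of the 18 tested cell cycle inhibitors and p53 genes, 0 were called by edgeR and 2 had an unadjusted p under 0.05.

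Among 35 tested apoptosis genes Bmf, which encodes a BH3-only activator of cell death, was called, at 11.8, 11.04 and 15.3 CPM in the PBS libraries and 20.4, 20.1 and 17.6 CPM in the EET libraries (log2 fold change 0.61 ± 0.12 SE, adjusted p = 0.0245). Among 46 antioxidant genes Gstp1, a glutathione transferase with a close relative in the genome, fell by 0.29 on the log2 scale (adjusted p = 0.0236), and among 33 genes of the interferon response and antigen presentation H2-D1 fell by 0.29 (adjusted p = 0.02299). The H2-D1 fall and the H2-Q10 rise are in opposite directions within the class I family. Antioxidant genes had a median of 0.00496. The shares called were 2.86% of the apoptosis, 2.17% of the antioxidant and 3.03% of the interferon and antigen presentation genes, against 1.22% of all genes.

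Lists with 0 calls by edgeR were the 40 genes of the unfolded protein and amino acid response (5 with an unadjusted p under 0.05), the 66 cell cycle genes (5), the 15 tested genes of polycomb repressive complex 2 (3), the 17 tested IGF genes (7) and the 11 tested mitochondrially encoded genes (1). Of all tested genes 1.22% were called. An unadjusted p under 0.05 was found for 12.4% of all tested genes, a share that the IGF list exceeded and the cell cycle list did not reach. Ezh2, the methyltransferase of polycomb repressive complex 2, gave 0.05 (95% interval -0.09 to 0.19). The cell cycle list spanned only -0.23 for E2f7 to 0.17 for Pola1. In the IGF list Igfbp5, a binding protein of IGF, was at 22.96, 35.1 and 52.9 CPM in the PBS libraries and 65.9, 72.3 and 55.02 CPM in the EET libraries, with PBS-3 and EET-3 only 2.07 CPM apart, and it did not pass the test (log2 fold change 0.79 ± 0.21 SE, adjusted p = 0.106).

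Promoters of the RefSeq table were matched to 58 of 75 called-higher genes, 81 of 109 called-lower genes and 10728 of 15044 tested gene symbols. Each window of 250 bases was searched on both strands for 7 motifs. AGGTCA was in the promoters of 12.1% of higher, 16.0% of lower and 13.1% of all matched genes. The AP-1 site TGANTCA was in 6.90%, 6.17% and 5.55%, the cAMP response element TGACGTCA, which contains no AP-1 site as spelled here, in 1.72%, 3.70% and 3.01%, and TATAAA in 10.3%, 11.1% and 7.81%. GGAATG, bound by TEAD factors, was in 3.45%, 11.1% and 13.0%, the GC box GGGCGG in 60.3%, 60.5% and 64.0%, and the E-box CACGTG in 3.45%, 9.88% and 9.96%. The median ratio of observed to expected CpG was 0.543 in higher, 0.594 in lower and 0.717 in all matched genes. These shares describe the letters of the windows and were not tested.

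The called genes were then followed in the fresh mGCs of the series, which share no library with the culture experiment and compare 5 EM mice with 5 sham-operated (Con) mice. Of 73 genes called higher with 14,15-EET and tested in fresh cells, 51 (69.9%) were higher in the EM group than in the Con group, with a median difference of 0.14, where 50.8% of all genes were. Of 104 genes called lower, 60 had lower levels in EM mice and 44 (42.3%) higher ones, where 50.8% of all genes were higher (median difference -0.11). The share thus lay closer to that of all genes in the lower set than in the higher set. Across both directions 111 of 177 genes (62.7%) had the same sign in the 2 comparisons, that is, EET moved the cultured cells the way that EM mice differed from Con mice, against 51.8% of all genes tested in both. With each fresh library left out in turn the share stayed between 58.2% (without EM-mGC-1) and 65.0% (without Con-mGC-1). These shares are a description, since genes are not independent replicates. In the fresh cells edgeR called 0 of 17229 genes (0%) at the adjusted threshold of 0.05, and 1626 (9.44%) had an unadjusted p under 0.05. Of the 177 called genes, 36 had an unadjusted p under 0.05, of which 27 had the same sign and 9 the opposite sign.

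Genes of the same sign included Ptgfr, higher in the EM group by 0.79 ± 0.33 SE (unadjusted p = 0.0323), and Col4a3, Col4a4 and Aldh1a2, with EM minus Con differences of -0.69 ± 0.23, -1.02 ± 0.18 and -0.55 ± 0.17 SE (unadjusted p = 0.0102, 9.15e-05 and 0.00641). Genes of the opposite sign included Fos and Fn1, which fell with 14,15-EET and were higher in the EM group by 0.79 ± 0.25 and 0.77 ± 0.26 (unadjusted p = 0.00852 and 0.0109), and Adamts2, which rose with 14,15-EET and gave -0.70 ± 0.19 in the EM group. The others of opposite sign were Iqgap2, Map2, Gstp1, Glipr1, Rps26-ps1 and Pde4b. Stra6 and Cyp26b1 gave -0.22 ± 0.24 and 0.17 ± 0.31 SE in fresh cells (unadjusted p = 0.368 and 0.588), so neither the receptor nor the enzyme passed even an unadjusted threshold there.

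**Figure D5:**
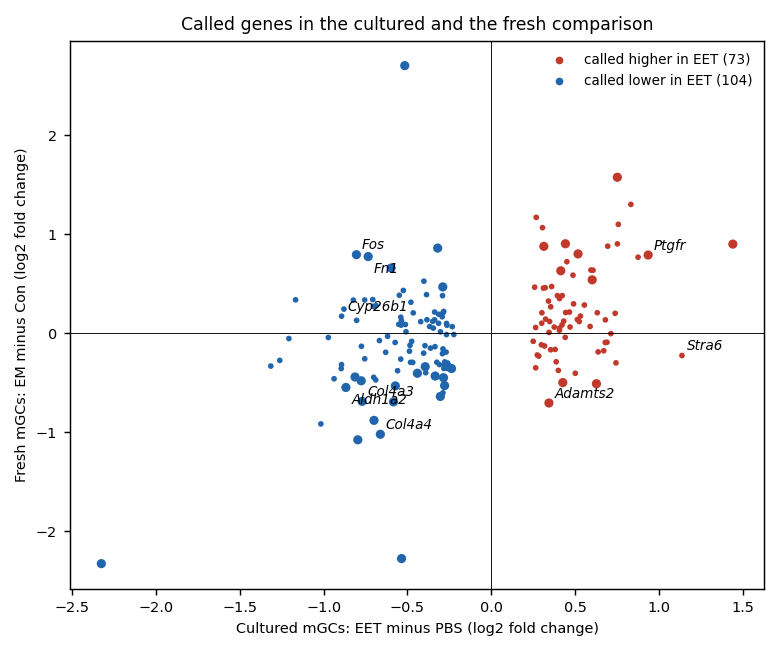
The 177 called genes tested in both experiments, with the EET minus PBS change in cultured mGCs (x axis, log2 fold change) and the EM minus Con difference in fresh mGCs (y axis, log2 fold change). Red points were called higher and blue lower in EET, large points have an unadjusted p under 0.05 in fresh cells, and 51 of 73 red and 60 of 104 blue points have the same sign on both axes.

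Which genes were called depended on single libraries. Without EET-3 the count was 48 and without EET-2 it was 61, whereas without PBS-2 it was 436 and without PBS-1 it was 350. Only 44 of the 184 genes, 21 higher and 23 lower, were called with each of the 6 libraries left out in turn. Of the 67 called genes that the naming rule gave, 17 were among these: Stra6, Ror1, Plekhg4, H2-Q10, Cplx1, Ppp1r16b and Tns4 among the rises, and Cyp26b1, Elavl2, Ptprq, Pex5l, Dchs1, Fn1, Bdnf, Egr1, Col4a3 and Fbln5 among the falls. The other 50 lost the call without at least 1 library, most often without EET-3 (47 of 67) or EET-2 (42 of 67), and none of the 67 changed direction. The counts of the lists moved as well. Without EET-2 and without EET-3 axon guidance had 0 calls, the prostaglandin list 0 and the retinoid list 2, while without PBS-1 they had 9, 5 and 6. WNT signalling had 1 call without EET-2 and 8 without PBS-1, connective tissue matrix 1 without EET-3 and 9 without PBS-1, and the matrix branch of PI3K-Akt 2 without EET-3 and 9 without PBS-1.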

How the data were processed

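RNA-seq of 6 cultured mGC libraries was analysed, with 10 fresh mGC libraries for 1 comparison. Per the labels, libraries were made from poly(A) RNA with a stranded kit, and per the study's methods they were read from both ends over 150 bp. The authors deposited raw counts per Ensembl gene. The submitters' processing notes list fastp, HISAT2, StringTie and GRCm39, and strand setting, versions and treatment of shared reads were not given in the sources used here, so overlapping or closely related genes are uncertain. No column was left unused (0 columns).

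Counts were analysed in R 4.3.3 with edgeR 4.0.16 (filterByExpr by group, TMM scaling, quasi-likelihood test, Benjamini-Hochberg adjustment over all tested genes, limma 3.58.1 underneath). Genes with an adjusted p under 0.05 were called, without a fold limit. The standard error is the log2 fold change over the square root of F. Each experiment was fitted on its own libraries and without a replicate block. The study's methods name DESeq2, which was run as an alternative (1.42.0). CPM values are TMM-scaled. The study's methods describe the cultures as paired biological replicates, without saying whether equal library numbers mark the pairs, so the block was an alternative. Depth was 21384686 to 29482826 counts per library, and no interval for counting error alone is given.

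Named genes are the 15 largest rises and 15 largest falls among called genes of at least 1 mean log2 CPM with groups that do not overlap and no predicted symbol, every called member of a list, the members at the ends of a list, 9 genes the study followed, and defining markers near 0. Of these, 1 gene is not reported here. Genes and lists were chosen with earlier results of these data known, so list counts are descriptions without a set test. Overlap of genes means shared span where the other gene has at least 1% of the reads. Promoters are RefSeq windows of 250 bases on GRCm38.p6. Alternatives were DESeq2, other normalizations and filters, protein-coding genes only, the replicate block, thinning, a fold limit of 0.5 and leaving out each library, and leaving out each fresh library was chosen after seeing the data. Steps were tested on simulated counts.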

Additional observations from a re-analysis of the deposited data

How the results depend on the processing

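Counts of called genes (184 in all, 75 higher and 109 lower) stayed within 1.5 times of these under RLE or upper-quartile normalization, at least 10 counts in every library, protein-coding genes only, and thinning to the smallest library. They were 323, 134 and 189 with DESeq2, 662, 327 and 335 when every gene with at least 1 read was tested, and 84, 30 and 54 with a fold limit of 0.5 on the log2 scale, which removes genes by construction. With the replicate number as a block (replicate block) they were 341, 168 and 173, and 183 of the 184 genes remained called. The study's methods call the replicates paired, and a block would fit that design if equal numbers marked the pairs. The labels do not say so, and deviations of same-numbered libraries correlated at 0.0602, 0.0980 and -0.0237, with not every library correlating best with its own number. With each library left out in turn the counts ran from 48 to 436 in all, 22 to 222 higher and 26 to 214 lower, with the lowest without EET-3 and the highest without PBS-2. The cause of these shifts was not tested.

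The share of called genes with the same sign in fresh cells stayed between 59.1% and 65.9% under the alternatives to the culture fit. Of the named genes, 17 of the 67 called ones were called under every alternative in which they were tested, and 0 changed direction. Counts of called members of the 20 lists with a call moved by over 1.5 times, or to 0, in 113 of 280 recomputations, and list medians moved by more than the spread between replicates in 24 cases. Pik3r1, not called, was called when every gene with at least 1 read was tested (adjusted p = 7.55e-04). Among genes that were not called, which way the level differed depended on the library left out for Cdkn1a (-0.11 to 0.12, positive without PBS-1), Ephx1 (-0.082 to 0.082, positive without PBS-1 or EET-1) and Akt2 (-0.021 to 0.013, positive without PBS-1, PBS-3 or EET-3), and Akt2 gave 0.0011 for protein-coding genes only. Depth limits the 3763 genes of lowest level, where the median standard error was 0.293. Genes left out by the expression filter were not tested.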

Other observations

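The following called genes belong to no list used above and were chosen after their values were seen, so they carry no test beyond that of each gene. Several handle calcium, other ions or cAMP. Ryr2, a calcium release channel, was at 12.5, 8.503 and 9.101 CPM in the PBS libraries and 15.3, 14.2 and 16.96 CPM in the EET libraries (log2 fold change 0.64 ± 0.13 SE, adjusted p = 0.03699), and Itpr1, the inositol trisphosphate receptor, rose by 0.26 (adjusted p = 0.02704). Slc8a1, which exports calcium in exchange for sodium, was at 11.7, 12.8 and 14.5 CPM in the PBS libraries and 8.43, 7.84 and 6.82 CPM in the EET libraries, with the groups apart (log2 fold change -0.76 ± 0.11 SE, adjusted p = 0.00668). The potassium channel gene Kcnk3 was at 43.6, 45.8 and 53.7 CPM in the PBS libraries and 81.5, 68.3 and 72.4 CPM in the EET libraries (log2 fold change 0.63 ± 0.08 SE, adjusted p = 0.00316), and it overlaps another counted gene. Prkar2b, a regulatory subunit of protein kinase A that FSH raises in granulosa cells, was at 251, 296 and 274 CPM in the PBS libraries and 349.7, 393 and 372 CPM in the EET libraries, and every EET library was the higher (log2 fold change 0.44 ± 0.07 SE, adjusted p = 0.00611). Pde4b, which breaks down cAMP, was at 20.8, 26.3 and 27.7 CPM in the PBS libraries and 16.5, 17.2 and 15.9 CPM in the EET libraries and fell (log2 fold change -0.60 ± 0.10 SE, adjusted p = 0.0114). Caveolin genes Cav1, at 248, 271 and 265 CPM in the PBS libraries and 336, 361 and 354 CPM in the EET libraries, and Cav2 rose by 0.42 and 0.30 (adjusted p = 0.00227 and 0.0464), as did Ehd3, a membrane remodelling protein (0.43, adjusted p = 0.00294).

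Further called genes encode proteins of microtubules and of transport along them. The motor gene Kif1a was at 101, 105 and 107 CPM in the PBS libraries and 71.3, 68.6 and 70.6 CPM in the EET libraries, with the groups far apart (log2 fold change -0.57 ± 0.05 SE, adjusted p = 1.59e-04), and Kif5c fell by 0.48 on the log2 scale (adjusted p = 0.0328). The tubulin genes Tubb4a (-0.70), Tuba8 (-0.57), Tubb3 (-0.38) and Tubb2b (-0.34) and the microtubule-associated gene Map1a (-0.27) had adjusted p from 0.00342 to 0.0324, and reads of tubulins may be shared within the family. Map2, another microtubule-associated gene, rose, from 43.4 ± 2.76 CPM with PBS to 58.3 ± 0.933 CPM with 14,15-EET (SD, n = 3; adjusted p = 0.00399). Of called genes of vesicle release, Sytl2 (-0.44), Sytl1 (-0.58), Syt11 (-0.27) and Ptprn (-0.47) fell, whereas the complexin gene Cplx1 rose. The largest rise of all, Sp7, a transcription factor of bone-forming cells, lay under the level limit of the naming rule, at 0.901, 0.923 and 0.5396 CPM in the PBS libraries and 2.17, 2.89 and 3.31 CPM in the EET libraries (log2 fold change 1.83 ± 0.26 SE, adjusted p = 0.00533). The nuclear RNA Malat1 was at 245, 265 and 265 CPM in the PBS libraries and 359, 375 and 374 CPM in the EET libraries (log2 fold change 0.51 ± 0.05 SE, adjusted p = 5.61e-04), and the transporter gene Abcb1b rose from 331 ± 56.6 CPM with PBS to 466 ± 21.4 CPM with 14,15-EET (SD, n = 3; adjusted p = 0.0295).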
